A study of Gallus gallus with 10 samples.

Results

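The neural crest genes TFAP2B, DRAXIN, SNAI2, PAX7, PAX3, SOX9, SOX10, FOXD3 and ETS1 were followed in chick placode progenitors before and after explant culture. Every probe set that the platform annotation assigns to 1 of these 9 genes was taken, which gave 15 of the 38439 probe sets on the array, for 9 of 13009 named genes. The arrays hold anterior placode progenitors (aPPs, the source of lens and olfactory placodes) and posterior placode progenitors (pPPs, the source of the inner ear and epibranchial ganglia), dissected as anterior or posterior preplacodal tissue from chick embryos. The source and stage labels give HH5-7, whereas the titles of the uncultured samples give HH6. There were 3 arrays of aPPs and 3 of pPPs processed without culture, and 2 of cultured aPPs and 2 of cultured pPPs, which were held alone in rat tail collagen for 5 hours. The labels give no strain. There is no sample that stayed in place in the embryo over those 5 hours, so an effect of culture and one of added age cannot be told apart. The labels call replicates sets and do not say whether sets came from separate embryos, so the p-values measure only the spread between these samples, which may be technical.

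Neural crest cells arise at the border between the neural plate and the surface ectoderm, immediately next to the placode progenitors, and give rise to peripheral neurons and glia, pigment cells and much of the head skeleton. Transcription factors of the border, such as PAX7, PAX3 and AP-2 proteins, act first. They are followed by factors of specified crest, such as SNAI2, FOXD3, SOX9, SOX10 and ETS1, and the cells then leave the epithelium and migrate. Since the arrays measure bulk tissue, more crest cells in a sample and more of a transcript per cell cannot be told apart.

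Values are the deposited MAS5 signals, which are linear intensities without a physical unit, after quantile normalization over the 10 arrays. Tests were made with limma on log2 of the signal plus 16, with Benjamini-Hochberg adjustment over 21591 probe sets, and a difference was called at an adjusted p under 0.05. Fold changes come from the same log2 scale, so for a dim gene they are smaller than the ratio of the signals. The deposited signals are not scaled between arrays, and without normalization 8 of the 10 calls on members described here were lost (adjusted p 0.0794 to 1), those of PAX7 between uncultured regions and of TFAP2B on culture of pPPs being the exceptions. The log2 differences of the 8 moved by at most 0.26, while their SEs lay between 0.33 and 0.64, against 0.18 and 0.30 with normalization. Where a gene had several probe sets, the tested probe set with the highest mean signal stands for it.

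Only 3 members were detected on each array with a detection call. Detection calls, which MAS5 gives as present, marginal or absent, could be assigned to 8 of the 10 arrays. DRAXIN, SNAI2 and the main ETS1 probe set were present on 8 of these 8 arrays. SOX10 was present on 7 and marginal on the remaining array, and TFAP2B was present on 6. TFAP2B was absent on 2 aPP arrays. PAX7 was present on 4 arrays, and these were the 4 posterior arrays that have a call. FOXD3 was also present on 4 arrays, but these were uncultured arrays of both regions. SOX9 was present on 2 arrays, 1 of pPPs and 1 of cultured pPPs. PAX3, the paralogue of PAX7, had no present call and its normalized signal stayed between 0.19 and 3.66, so it was not tested. In all, 9 of the 15 probe sets were tested, for 8 of the 9 genes, and 5 of the 6 others had no present call.

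**Figure D1:**
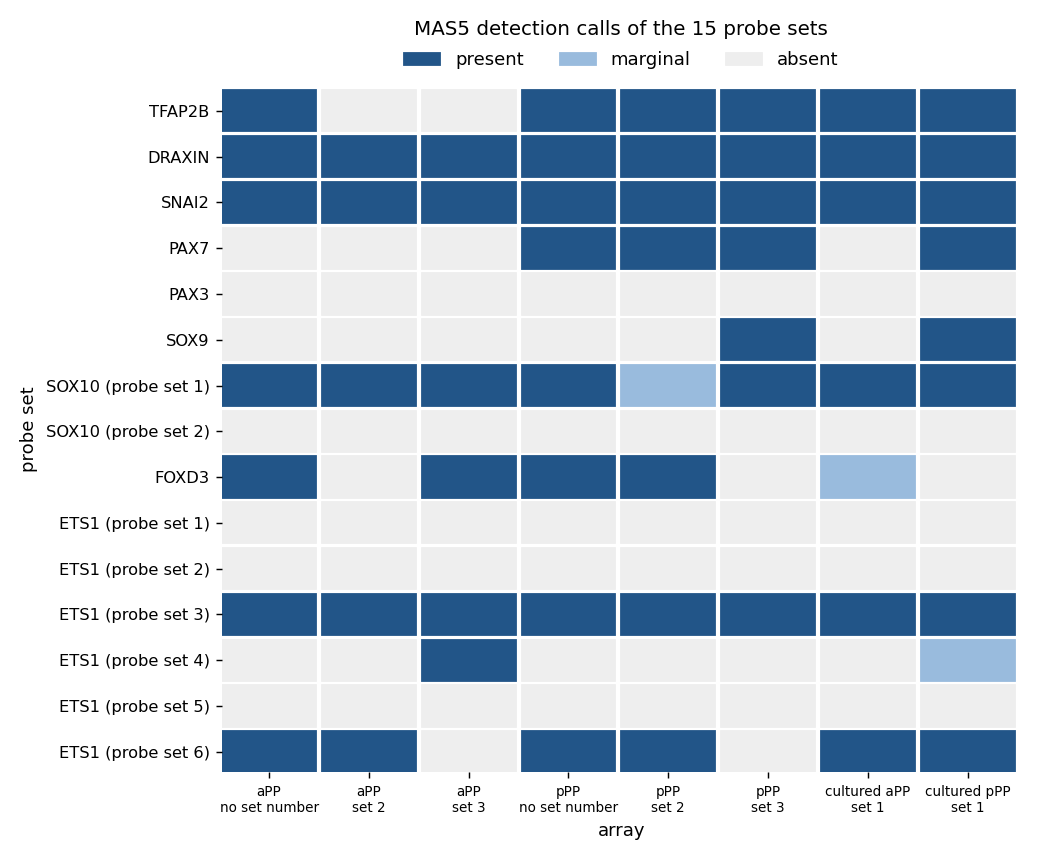
MAS5 detection calls of the 15 neural crest probe sets (rows) on the 8 arrays whose calls could be assigned (columns, by group). PAX7 was present on the posterior arrays only, while PAX3 was present on none.

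The uncultured tissues were compared first, to ask which crest genes already differed between the future anterior and posterior placode territories. DRAXIN, PAX7 and TFAP2B were lower in aPPs than in pPPs, and no member was higher. DRAXIN encodes a secreted Wnt antagonist and axon guidance protein that is expressed by premigratory cranial crest in the chick. Its normalized signal was 49.9, 49.2 and 56.8 in aPP sets 1, 2 and 3 and 129, 128 and 119 in pPP sets 1, 2 and 3. The lowest pPP array was thus well above the highest aPP array, and DRAXIN was 2.08-fold higher in pPPs (log2 difference of aPPs from pPPs -1.06, SE 0.18, limma adjusted p = 0.0042).

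PAX7 is a paired-box factor of the neural plate border that the chick embryo needs for crest formation. Its signal was 0.65, 0.65 and 1.72 in aPPs. In pPPs it was 19.1, 21.4 and 25.2. No aPP array carried a present call, whereas the 3 pPP arrays did, and the groups were far apart. The fold is therefore given as a lower bound, taken against the lowest signal called present on an array where that was higher than the signal of PAX7 itself. That floor is the lowest over all probe sets and is not the detection limit of PAX7. Absent calls also occurred at higher signals, as for FOXD3 at 40.7 on cultured pPP set 1. Folds given as "at least", here and below, thus hold only against that floor. PAX7 was at least 1.97-fold higher in pPPs (log2 difference -1.15, SE 0.15, limma adjusted p = 0.000377).

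TFAP2B encodes an AP-2 transcription factor of premigratory and migrating crest. Its signal was 6.27, 6.05 and 8.15 in aPPs and, in pPPs, 50.3, 25.5 and 40.9. The pPP arrays varied among themselves but lay above each aPP array (log2 difference -1.24, SE 0.23, limma adjusted p = 0.00947). TFAP2B was present on only 1 of the 3 aPP arrays, so the size of the difference depends on the offset, and it was -1.95 with an offset of 4 and -0.53 with one of 64. Without pPP set 1 the adjusted p of TFAP2B was 0.0501, and with the offset of 64 it was 0.12.

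The remaining 5 tested members did not pass the test between uncultured regions, with adjusted p-values from 0.683 to 0.997. Thus 3 of 8 tested members were called lower in aPPs, where 0.713% of all tested probe sets were. PAX7, among the 3, was tested only through its present calls on posterior arrays. The count is therefore not independent of that filter. The 3 called genes were also the members whose aPP arrays all lay below all pPP arrays, which 7.04% of all tested probe sets did, and 1 member, ETS1, had each aPP array above each pPP array, as had 6.83%. The median log2 difference of the 8 members was -0.22, against -0.02 for all tested probe sets. Since the members were chosen with earlier results of these data known, such counts and medians, here and below, are a description only.

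**Figure D2:**
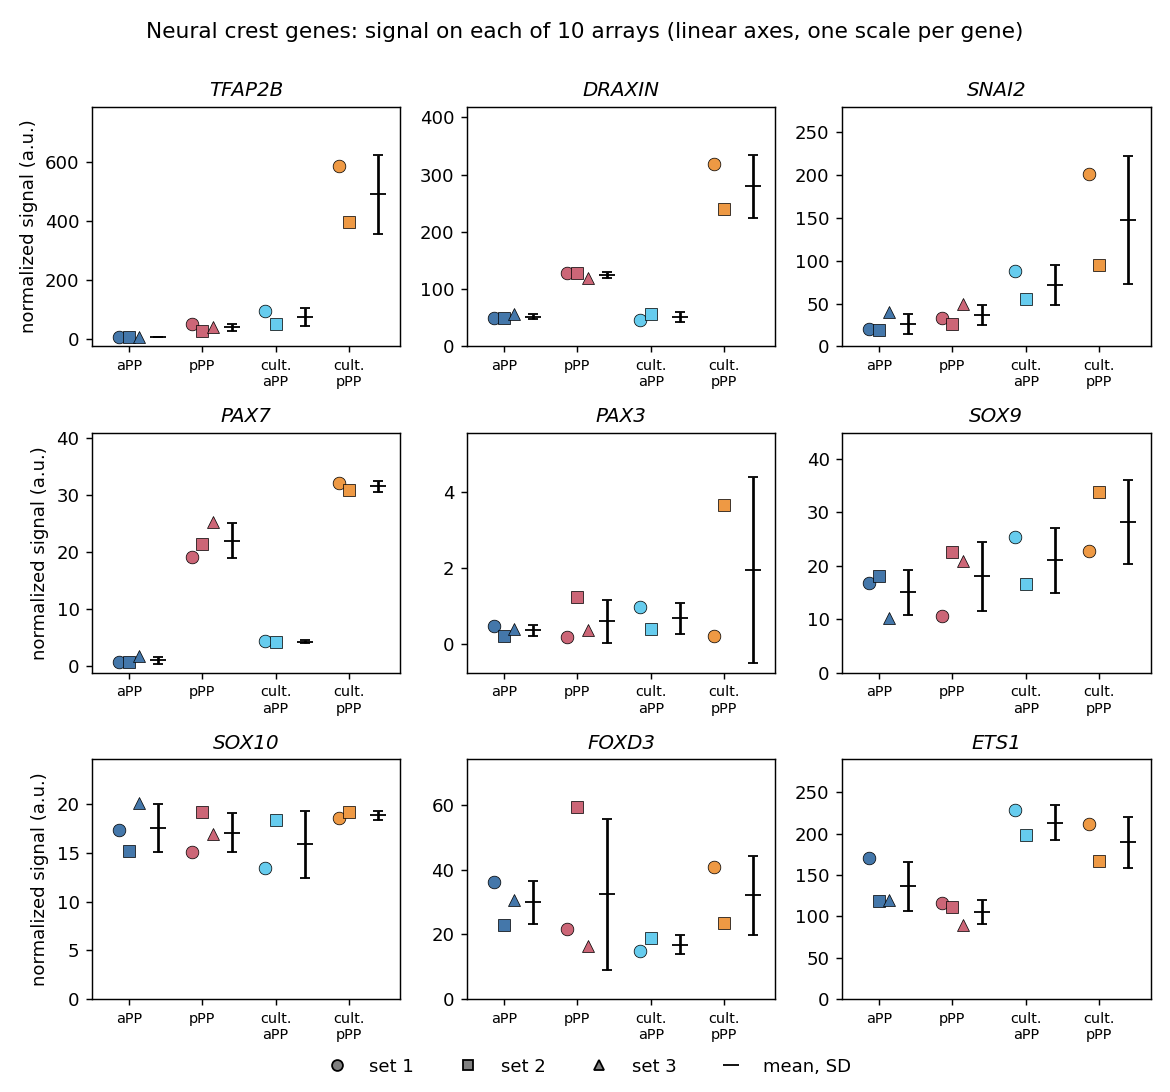
Normalized signal of each neural crest gene on every array (arbitrary units, linear axes with 1 scale per gene) in aPPs, pPPs, cultured aPPs and cultured pPPs, with symbols for sets 1, 2 and 3 and bars for the mean and SD. TFAP2B and SNAI2 were higher on each cultured array than on any uncultured array, while DRAXIN and PAX7 were higher on each posterior array than on any anterior array.

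Culture of pPPs was accompanied by higher TFAP2B, SNAI2 and DRAXIN. The largest change among the members was that of TFAP2B, whose signal reached 586 and 397 in cultured pPP sets 1 and 2, from a mean of 38.9 ± 12.5 (SD, n = 3) in pPPs. Both cultured arrays exceeded the highest pPP array many times over, and TFAP2B rose 9.25-fold (log2 difference 3.21, 95% CI 2.65 to 3.76, limma adjusted p = 6.82e-06). This call held under each of the 21 alternatives tried.

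SNAI2 encodes a zinc-finger repressor of epithelial genes that acts in crest cells as they leave the neural tube in the chick. Its signal was 32.8, 26.7 and 49.4 in pPPs and 200 and 94.8 in cultured pPPs. The cultured arrays did not overlap the uncultured ones, but set 1 was much higher than set 2. SNAI2 rose 3.01-fold (log2 difference 1.59, 95% CI 0.94 to 2.24, limma adjusted p = 0.00789). Without cultured pPP set 1, which leaves 1 cultured pPP array, the call was lost and the log2 difference was 1.11. A call lost in such a fit, here and below, does not show by itself that a gene depends on that array.

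DRAXIN reached 318 and 241 in cultured pPPs, from a mean of 125 ± 5.52 (SD, n = 3). Both cultured arrays lay above the 3 pPP arrays, and DRAXIN rose 2.08-fold (log2 difference 1.05, 95% CI 0.63 to 1.48, limma adjusted p = 0.00764). This call was also lost without cultured pPP set 1, and the log2 difference was then 0.87.

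PAX7, already present in pPPs, was 32.1 and 30.8 after culture. Both values exceed those of the 3 pPP arrays, but the difference did not pass the test (log2 difference 0.33, 95% CI -0.02 to 0.68, limma adjusted p = 0.313). ETS1, which encodes a factor of cranial crest and of endothelium, was 116, 111 and 89.1 in pPPs and 211 and 167 in cultured pPPs. Its groups were also separate, with an adjusted p of 0.0616 (log2 difference 0.76, SE 0.21). Without aPP set 1, which enters only through the shared spread and the normalization, the adjusted p was 0.0481. A dimmer tested probe set of ETS1 gave a log2 difference of 0.21 (limma adjusted p = 0.688).

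In all, 3 of 8 tested members rose in cultured pPPs and none fell, where 2.24% of all tested probe sets rose. On 6 of the 8, both cultured arrays lay above the 3 pPP arrays, as they did on 17.2% of all tested probe sets. The median log2 difference of the members was 0.57, against -0.01 over all probe sets, and the central 95% of all tested probe sets lay between -0.74 and 0.77.

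Culture of aPPs was accompanied by a call for TFAP2B alone among the members. Its signal was 95.2 and 52.4 in cultured aPP sets 1 and 2, from a mean of 6.83 ± 1.16 (SD, n = 3) in aPPs. Both cultured arrays were several times brighter than the brightest aPP array, and TFAP2B rose (log2 difference 1.93, 95% CI 1.38 to 2.49, limma adjusted p = 0.000634). Because TFAP2B was absent on 2 of the 3 aPP arrays, this size too depends on the offset, and was 2.79 with an offset of 4 and 0.94 with one of 64, with the call kept in both. The cultured aPP arrays were also above the 3 uncultured pPP arrays, the dimmer of them at 52.4 only slightly above the brightest pPP array at 50.3.

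SNAI2 was 19.8, 19.1 and 39.9 in aPPs and 88.0 and 55.5 in cultured aPPs. The groups did not overlap, but the log2 difference of 1.06 (95% CI 0.42 to 1.71) did not pass the test (limma adjusted p = 0.0665). With the set number as a block the difference was 1.26 and the adjusted p 0.00818, and with array weights the adjusted p was 0.0115. It was also under the threshold without aPP set 3 (0.038) and without either cultured pPP array (0.0427 and 0.0423).

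DRAXIN was 45.6 and 57.0 in cultured aPPs. These values span those of the uncultured aPPs, and the log2 difference was -0.02 (95% CI -0.44 to 0.41, limma adjusted p = 0.979). PAX7 was 4.41 and 4.09 in cultured aPPs and had no present call in either anterior group, although only 1 of the 2 cultured aPP arrays has a call that could be assigned. ETS1 was 170, 118 and 120 in aPPs and 228 and 198 in cultured aPPs, which do not overlap but differ by only 0.60 on the log2 scale (limma adjusted p = 0.149).

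Thus 1 of 8 tested members rose in cultured aPPs and none fell, where 2.1% of all tested probe sets rose. The arrays did not overlap for 4 members that were higher, as for 18.4% of all probe sets, and for 1 that was lower, as for 17.7%. The 4 were TFAP2B, SNAI2, ETS1 and PAX7, of which PAX7 had no present call in aPPs or cultured aPPs. The member that was lower was FOXD3, which had no present call in cultured aPPs. The median log2 difference of the members was 0.25, and that of all probe sets was 0.00. Neither tested ETS1 probe set was called in this comparison.

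**Figure D3:**
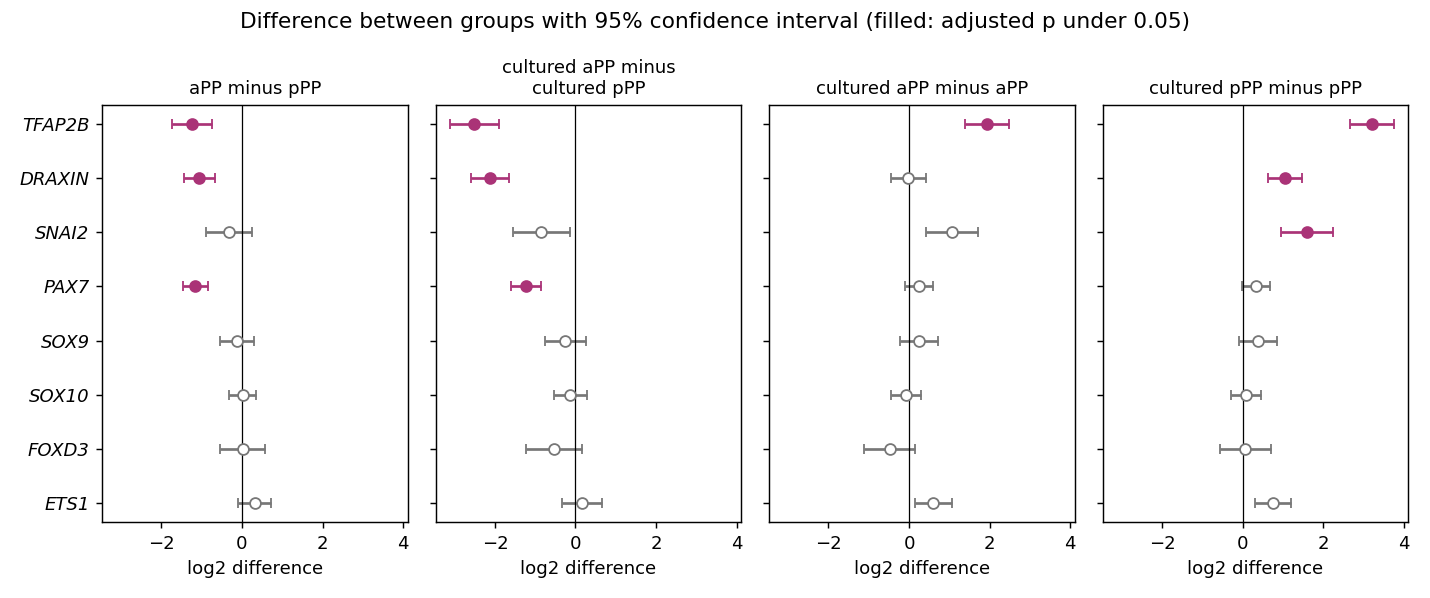
Log2 differences of the tested neural crest genes in the comparisons between groups (points, limma estimate, filled where the adjusted p is under 0.05; bars, 95% confidence interval). TFAP2B differed by 3.21 after culture of pPPs and by 1.93 after culture of aPPs, while SOX10 lay close to 0 in each comparison.

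After culture the regions still differed. TFAP2B, DRAXIN and PAX7 were lower in cultured aPPs than in cultured pPPs. DRAXIN was 4.37-fold higher in cultured pPPs (log2 difference of cultured aPPs from cultured pPPs -2.13, SE 0.22, limma adjusted p = 0.000281), with means of 51.3 ± 8.05 and 280 ± 54.8 (SD, n = 2 each). TFAP2B was 5.72-fold higher in cultured pPPs (log2 difference -2.52, SE 0.29, limma adjusted p = 0.000687), although it had risen in both regions. PAX7 had means of 4.25 ± 0.226 in cultured aPPs and 31.5 ± 0.926 in cultured pPPs (SD, n = 2 each). It was absent on the cultured aPP array that has a call. Its signal there was not below the lowest signal called present, so the fold is the plain estimate and not a lower bound. PAX7 was 2.34-fold higher in cultured pPPs (log2 difference -1.23, SE 0.18, 95% CI -1.61 to -0.85, limma adjusted p = 0.00741). The PAX7 call did not hold without cultured aPP set 1, cultured aPP set 2 or cultured pPP set 1, each of which leaves 1 array in a group. The log2 difference stayed between -1.25 and -1.21 in these fits.

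SNAI2 was lower in both cultured aPP arrays than in both cultured pPP arrays, but the difference of -0.84 (95% CI -1.55 to -0.14) did not pass the test (limma adjusted p = 0.487). The call of 3 of 8 members as lower in cultured aPPs compares with 0.13% of all tested probe sets. PAX7 is included here too, with the same limit from the filter on present calls. The 2 groups did not overlap for 6 members, each lower in cultured aPPs, and 22.7% of all probe sets behaved in this way. Among the 6 was SOX10, at 13.42 and 18.32 in cultured aPPs against 18.53 and 19.15 in cultured pPPs. FOXD3 was another, with no present call in either cultured group. For such dim genes a separation of 2 arrays from 2 says little.

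Whether culture acted differently on the 2 regions was tested as the difference between the culture responses, pPP minus aPP. No member was called (lowest limma adjusted p = 0.333), and 2 of 8 had an unadjusted p under 0.05. These were DRAXIN, whose response was larger in pPPs by 1.07 on the log2 scale (95% CI 0.47 to 1.67, adjusted p = 0.333), and TFAP2B, whose response was larger by 1.27 (95% CI 0.49 to 2.06, adjusted p = 0.405). For SNAI2 the difference was 0.53 with an interval from -0.39 to 1.44, so a difference between the regions was not detectable. Over all probe sets 0.0139% were called in this test. With an offset of 64 in place of 16, TFAP2B was called (difference 1.48, adjusted p = 0.0411).

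**Figure D4:**
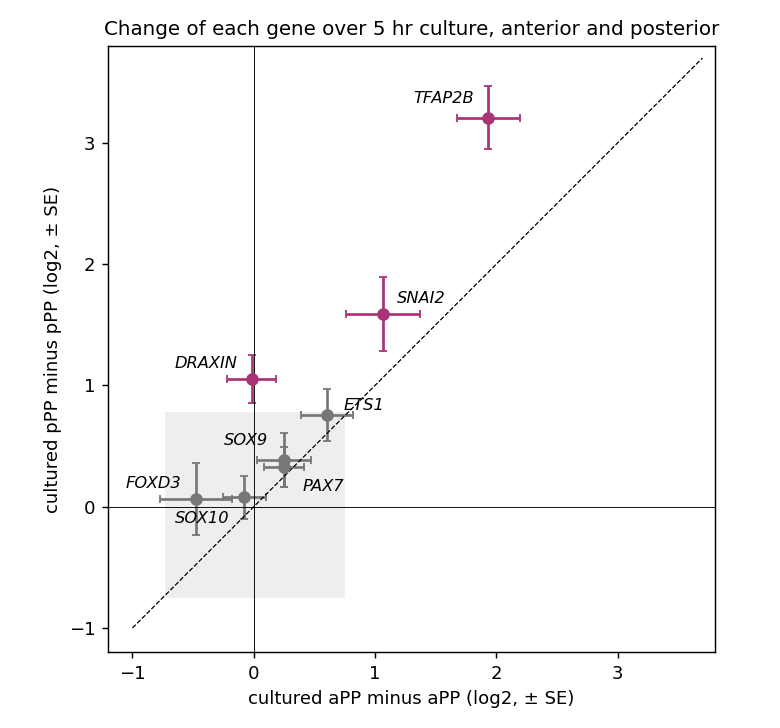
Log2 change on culture in aPPs (x axis) against that in pPPs (y axis) for each tested neural crest gene, with bars for the SE, a dashed line of equal change, and a grey area for the central 95% of all tested probe sets. Genes in colour were called in at least 1 of these 2 comparisons. DRAXIN lies at -0.02 on the x axis and 1.05 on the y axis, and TFAP2B at 1.93 and 3.21.

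Across the 10 arrays DRAXIN and PAX7 were separated by region and TFAP2B and SNAI2 by culture, although TFAP2B was also called between regions. The lowest of the 5 posterior arrays was at 119 for DRAXIN, against 57.0 for the highest of the 5 anterior arrays, and at 19.1 against 4.41 for PAX7. Such a separation was found for 2 of 8 tested members and for 1.01% of all probe sets. PAX7 was tested only through its present calls on posterior arrays, so its separation is not independent of that filter. For the separation by culture, the lowest of the 4 cultured arrays was at 52.4 for TFAP2B, against 50.3 for the highest of the 6 uncultured arrays, and at 55.5 against 49.4 for SNAI2. Both gaps are narrow. Separation by culture in this direction was again found for 2 of 8 members, against 5% of all probe sets.

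The remaining members gave no call in any comparison. SOX9 and SOX10 are SoxE transcription factors of specified crest. SOX9 lay between 10.3 and 33.8 over the 10 arrays, with overlapping values in aPPs (15.1 ± 4.20, SD, n = 3), pPPs (18.0 ± 6.47, n = 3) and cultured aPPs (21.0 ± 6.14, n = 2). Its highest mean, 28.2 ± 7.84 (n = 2), was in cultured pPPs, where both arrays lay just above the 3 pPP arrays (log2 difference 0.39, limma adjusted p = 0.382). SOX10 hardly varied, with all 10 arrays between 13.4 and 20.1 and log2 differences between -0.13 and 0.08. Its second probe set had no present call and stayed between 0.19 and 6.18.

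FOXD3, a winged-helix factor of premigratory crest, was spread within pPPs (21.8, 59.2 and 16.3) over nearly the whole span of the 10 arrays. It was 14.9 and 18.8 in cultured aPPs, below the 3 aPP arrays at 36.0, 22.9 and 30.8, and 40.7 and 23.4 in cultured pPPs. Neither its change on culture in aPPs (log2 difference -0.48, 95% CI -1.11 to 0.16, limma adjusted p = 0.456) nor that in pPPs (0.07, 95% CI -0.56 to 0.70, limma adjusted p = 0.934) passed the test.

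ETS1 had 6 probe sets. The main one had means of 136 ± 29.4 in aPPs and 105 ± 14.3 in pPPs (SD, n = 3 each), and of 213 ± 21.1 in cultured aPPs and 189 ± 31.0 in cultured pPPs (SD, n = 2 each). In the uncultured tissue each aPP array was above each pPP array, but the log2 difference of 0.32 did not pass the test (limma adjusted p = 0.683). The second tested probe set lay between 7.35 and 27.2, and of the other 4 only 1 had a present call, on 1 array.

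To place the 9 genes among others of the crest, a list of 25 further genes was examined, of which 23 are on the array and 20 were tested. This list held calls in both directions. In cultured aPPs, 4 rose, namely SNAI1, TFAP2C, MSX1 and SOX8, and 2 fell, namely EDNRB and ID1. In cultured pPPs, 4 rose, namely MSX2, TFAP2C, MSX1 and SOX8, and EDNRB fell. The backgrounds of falling probe sets were 1.61% and 1.7%, beside the 2.1% and 2.24% given above for rising ones.

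TFAP2C, an AP-2 paralogue of TFAP2B, rose from a mean of 131 to 309 in aPPs (log2 difference 1.18, limma adjusted p = 0.0109) and from 75.7 to 180 in pPPs (1.10, adjusted p = 0.0165). TFAP2A, the AP-2 gene expressed across the border and the surface ectoderm, had means of 596, 671, 635 and 626 in aPPs, pPPs, cultured aPPs and cultured pPPs and was not called. SNAI1, the paralogue of SNAI2, rose from 138 to 540 in aPPs (log2 difference 1.86, limma adjusted p = 0.00151). SOX8, the third SoxE gene, rose in both regions, by 0.98 in aPPs (limma adjusted p = 0.0087) and by 0.73 in pPPs (limma adjusted p = 0.0425).

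MSX1 and MSX2 encode homeodomain factors of the border that respond to BMP signals. MSX1 rose by 1.16 in aPPs (limma adjusted p = 0.0106) and by 0.88 in pPPs (limma adjusted p = 0.0437) on the log2 scale. MSX2 had no present call in pPPs and was at least 2.84-fold higher in cultured pPPs (limma adjusted p = 0.0011). EDNRB, an endothelin receptor of crest cells, moved the other way, from a mean of 556 to 106 in pPPs (log2 difference -2.14, limma adjusted p = 0.00176) and from 260 to 61.8 in aPPs (-1.83, limma adjusted p = 0.0054). ID1, an inhibitor of basic helix-loop-helix factors, fell from 692 to 285 in aPPs (-1.23, limma adjusted p = 0.000512).

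Between uncultured regions MSX2 (at least 2.09-fold, limma adjusted p = 0.0059) and ID1 (log2 difference 0.74, limma adjusted p = 0.0113) were higher in aPPs, and the cadherin CDH11 was lower (-1.84, limma adjusted p = 0.00992), with backgrounds of 1.18% and 0.713%. Between cultured regions none of the 20 was called by limma, and 2 had an unadjusted p under 0.05 (lowest adjusted p = 0.431). Of the 14 calls on these genes, all were lost without normalization and 10 on leaving out 1 array. Without 1 or the other cultured aPP array, the adjusted p on culture of aPPs was 0.14 and 0.123 for TFAP2C, 0.0557 and 0.215 for MSX1, 0.12 and 0.111 for SOX8, and 0.0776 and 0.0696 for EDNRB. On culture of pPPs it was 0.215 for TFAP2C and 0.0654 for EDNRB without cultured pPP set 1, and 0.0657 for TFAP2C without pPP set 2, while MSX1 and SOX8 kept their calls in only 3 and 2 of the 10 fits with an array left out (highest adjusted p 0.334 and 0.179). With the set number as a block SOX8 was not called on culture of pPPs (adjusted p = 0.0654), whereas MYCN was called lower there (log2 difference -0.66, adjusted p = 0.00493, against 0.0869 without the block) and RHOB was called lower in aPPs than in pPPs (-0.56, adjusted p = 0.027, against 0.115). Between uncultured regions the adjusted p was 0.0593 and 0.0862 for ID1 without aPP set 2 and pPP set 2, and 0.0624 for CDH11 without aPP set 3. The calls of MSX2 in both comparisons, and those of SNAI1 and ID1 on culture of aPPs, held whichever array was left out. The median log2 differences of the 20 genes were -0.10 between uncultured regions, 0.15 and 0.10 on culture of aPPs and pPPs, and -0.10 between cultured regions.

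Markers of other cell types also moved with region and culture. The label of preplacodal tissue was checked with EYA1 and EYA2. EYA2 was present on 8 of 8 arrays, but EYA1 was present on only 3, with group means between 4.62 and 7.84. The summed signal of 9 genes of paraxial and head mesoderm was 1117 to 1312 in aPPs, 242 to 508 in pPPs, 1788 to 2051 in cultured aPPs and 870 to 1145 in cultured pPPs, with no present call for 3 of them, TBX6, MEOX2 and TBX1. FOXC2 made up most of it and rose in cultured pPPs (log2 difference 1.57, limma adjusted p = 0.00429). The sum of 4 dorsal neural tube genes was 15.7 to 69.1 in aPPs, 54.2 to 84.0 in pPPs, 18.2 to 21.5 in cultured aPPs and 71.0 to 81.0 in cultured pPPs, with no present call for WNT1 and WNT3. LMX1B made up most of the posterior sums, with means of 55.0 in pPPs and 72.3 in cultured pPPs. WNT3A, the other tested gene, lay the other way between uncultured regions, with means of 31.5 in aPPs and 7.25 in pPPs. It was not called there (log2 difference 0.94, limma adjusted p = 0.149). The sum of 6 neural plate genes was 778 to 1016, 686 to 1123, 463 to 567 and 486 to 634 in the same order of groups. The sum of 4 genes of nonneural ectoderm was 4135 to 4288, 1880 to 3027, 4017 to 4114 and 3226 to 3739. That of 8 genes of endoderm and axial mesendoderm was 330 to 1818, 272 to 331, 299 to 515 and 220 to 270, with no present call for CHRD. SHH and GSC had 1 present call each. HHEX, with a mean of 846, made up most of the aPP sums, which were 1161, 330 and 1818 in sets 1, 2 and 3. The sum of 8 genes of blood and endothelium was 45.2 to 71.1, 39.8 to 47.1, 40.9 to 55.7 and 47.8 to 54.2. Only 3 of these blood and endothelium genes were tested, and none was called. CDH5, LMO2 and GATA2 had no present call. Of the otic genes PAX2 and HMX3, neither was tested. For comparison, the summed signal of the 9 members was 250 to 317, 378 to 415, 421 to 516 and 1010 to 1431.

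Several single markers were called in these comparisons, some in the direction of the called members and some in the opposite direction. Of the 5 tested neural plate genes, only ZEB2 was called between uncultured regions. CDH2 alone among them had a positive difference of aPPs from pPPs, which was not called (log2 difference 0.64, limma adjusted p = 0.29). ZEB2, a zinc-finger factor of the neural plate that is also expressed by crest, was like DRAXIN, PAX7 and TFAP2B lower in aPPs than in pPPs, by at least 7.62-fold since it had no present call in aPPs (log2 difference -2.95, limma adjusted p = 0.000242). It was also lower in cultured aPPs than in cultured pPPs (-2.48, limma adjusted p = 0.024), a call that was lost without cultured aPP set 1 (0.108), cultured aPP set 2 (0.439) or cultured pPP set 1 (0.392). The surface ectoderm keratin KRT7 was higher in aPPs than in pPPs (1.63, limma adjusted p = 0.00117) and rose in cultured pPPs (1.49, limma adjusted p = 0.00478), the latter not without cultured pPP set 1 (0.124). FOXC2 was higher in aPPs too (1.93, limma adjusted p = 0.000361). Also called between uncultured regions were GATA3 (1.39, limma adjusted p = 0.0284), SOX17 (at least 4.23-fold, 0.0181) and HHEX (1.81, 0.048), which were higher in aPPs, and TBXT (-0.83, 0.0193), which was lower. These 4 calls were less stable, and held in 6, 6, 1 and 6 of the 10 fits with an array left out. All 4 were also lost with no filter and with only the arrays compared. On culture of aPPs HES5 rose (1.03, limma adjusted p = 0.0216) and WNT3A fell (at least 2.22-fold lower, 0.0472), in 8 and 3 of those 10 fits. The part of these other cell types in the differences of the members was not tested.

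Genes whose profile over the 10 arrays was most like that of a called member are given as a description, by the Pearson correlation of log2 values; the 10 arrays share the 4 groups, so any gene with the same group order scores highly. PAX7 was most like LMX1B (r = 0.989), a LIM homeodomain gene of the dorsal neural tube, MRPL23 (0.948) and SURF2 (0.946). LMX1B had means of 6.91 in aPPs, 55.0 in pPPs, 14.9 in cultured aPPs and 72.3 in cultured pPPs, and like PAX7 it was called between regions both before culture (log2 difference -1.62, limma adjusted p = 0.000164) and after it (-1.53, limma adjusted p = 0.00739). The latter call was lost without cultured aPP set 2 (adjusted p = 0.275) or cultured pPP set 1 (0.0803). DRAXIN was most like HES6 (0.961), a basic helix-loop-helix gene of the HES family, FST (0.942), which encodes an activin and BMP antagonist, and PAX7 (0.941).

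TFAP2B was most like FRMD4B (0.973), RWDD4 (0.970) and OLFM1 (0.962), which encodes the secreted glycoprotein noelin-1, known in the chick for its part in crest production. OLFM1 had means of 192, 377, 401 and 904 in aPPs, pPPs, cultured aPPs and cultured pPPs, and was called in each of the 4 comparisons between groups. Without cultured aPP set 2 its adjusted p was 0.0915 on culture of aPPs and 0.0854 between cultured regions, where it was also 0.231 without cultured aPP set 1 and 0.138 without cultured pPP set 1. SNAI2 was most like NR6A1 (0.965), ERG28 (0.965) and ARMC1 (0.964). Of the genes named as most alike, RWDD4, MRPL23, SURF2, ERG28 and ARMC1 were called in no comparison. Their largest log2 difference was -0.46, for RWDD4 between cultured regions. FRMD4B, HES6, FST and NR6A1 were each called in at least 1 comparison in the main model. Among the members themselves, the correlation was 0.923 between TFAP2B and SNAI2 and 0.941 between DRAXIN and PAX7, while the other pairs among these 4 genes gave 0.796 for TFAP2B and DRAXIN, 0.725 for TFAP2B and PAX7, 0.625 for DRAXIN and SNAI2 and 0.547 for SNAI2 and PAX7.

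**Figure D5:**
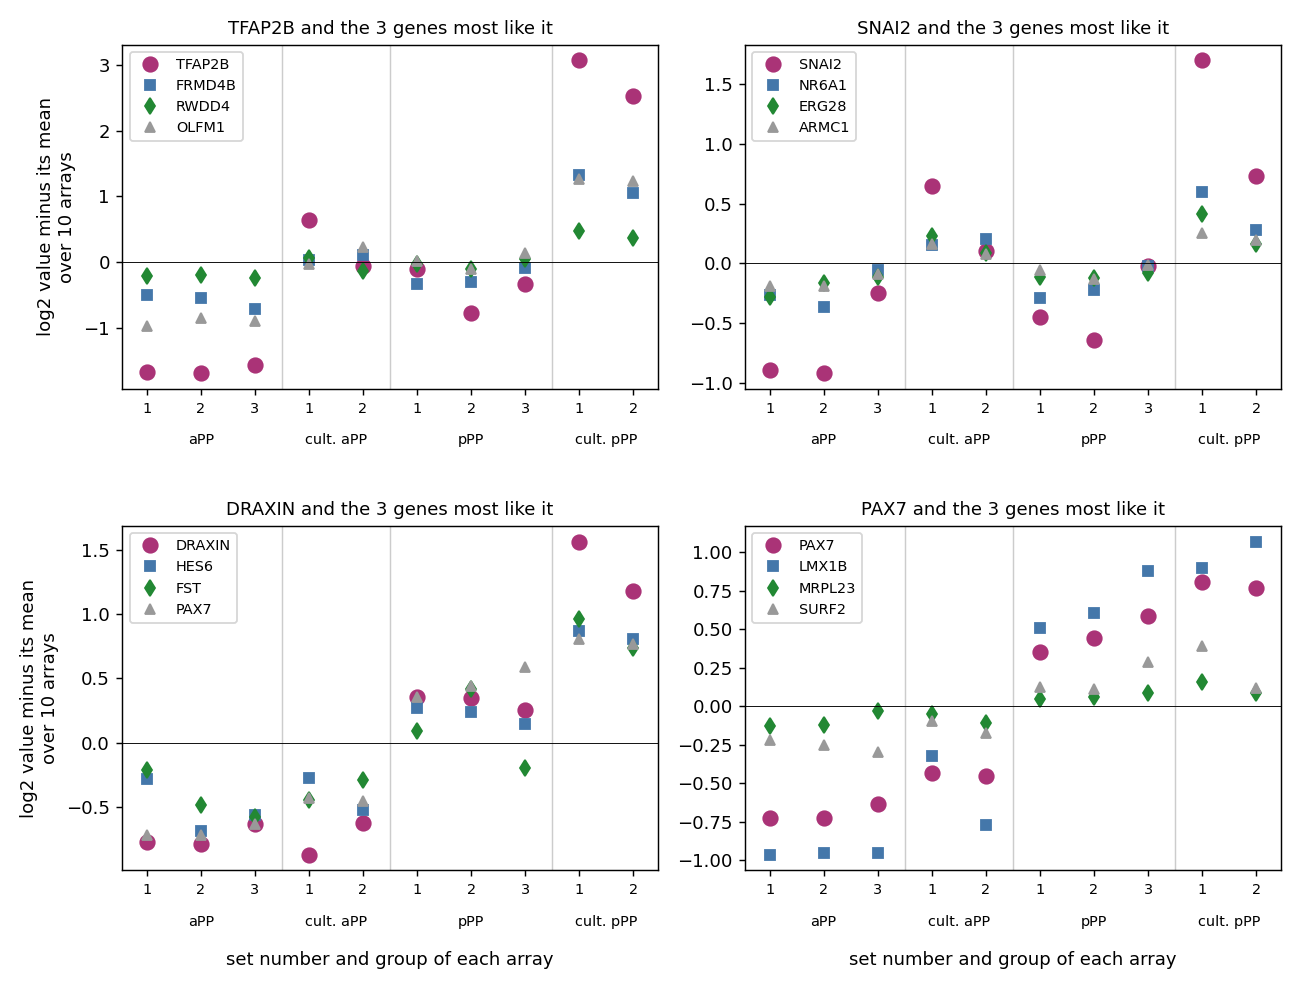
Log2 value minus its mean over the 10 arrays (y axis) of each called neural crest gene and of the 3 genes with the most similar profile, on each array by group and set number (x axis). LMX1B and PAX7 are both higher in the posterior groups, and OLFM1 and TFAP2B are both highest in cultured pPPs.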

How the data were processed

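Placode progenitor RNA was extracted, amplified and labelled with NuGEN Ovation reagents, and the authors obtained signals and present or absent calls from MAS5 (no version stated in the sources read). The deposited signals are a linear intensity that is not scaled between arrays (medians 6.2 to 21.3). They were quantile normalized over the 10 arrays without the 96 control probe sets. Tests covered the 21591 of 38439 probe sets with a present call on 2 or more of 8 arrays, and between 44.7 and 50.2 percent were present per array. In the second table, there were 6 columns that were not used, the signals and calls of 2 arrays under 1 shared name and 2 signal columns without a set number. The shared name is that of cultured aPP set 2, and no assigned column is named for cultured pPP set 2. The regions of both set 2 cultured arrays thus rest on their sample titles. The column name of cultured aPP set 1 also marks it as a re-scan. Signals of all 10 arrays came from the series table. It holds the same values for the arrays whose signal columns in the second table could be assigned by name, and the other arrays were not compared. Symbols came from the platform annotation (27168 probe sets with 1 symbol, 177 with several, 11094 with none).

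Group means were compared with limma 3.58.1 in R 4.3.3 in 1 model of the 10 arrays, with an offset of 16 and variances that follow intensity. Two-array groups borrow their spread from the others. The procedure was tested on simulated data with independent noise and with shifts added only to probe sets brighter than the median. Shifts of dim probe sets and effects shared within a set were thus not covered. Figures were drawn with matplotlib 3.10.9.

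The 9 members, the marker lists and the tests were chosen with earlier results of these data known. Named are all probe sets of the members, further crest genes called in a comparison (up to 4 in each direction) and the 3 genes most like each called member. The deviations of same-numbered aPP and pPP arrays from their group means correlated at 0.439, 0.182 and 0.226 for sets 1, 2 and 3. Since the deviations of a group sum to 0, the covariances between differently numbered aPP and pPP arrays were negative on balance. Same-numbered arrays thus shared part of their deviations. The labels do not say whether equal set numbers mark the same embryos, so a pairing by design was not established. With the set number as a block, 569 probe sets were called between uncultured regions, against 408 in the main model, which leaves it out. Between cultured and uncultured arrays the deviations correlated at -0.00805 and 0.0772 for aPPs, and at 0.0648 and -0.106 for pPPs. Cultured aPPs and cultured pPPs correlated at 0.100 in both sets, which with 2 arrays per group is a single value. The alternatives were other offsets (4 and 64), normalizations and filters, no intensity trend, a block for the set number, array weights, only the arrays compared and each array left out in turn. For further named genes, arrays were left out and the other settings tried only after the data had been seen.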

Additional observations from a re-analysis of the deposited data

How the results depend on the processing

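On the main probe sets of the neural crest genes 10 calls were made. None reversed under the 21 alternatives, and 2 held under each of them, those of TFAP2B on culture of pPPs and of PAX7 between uncultured regions. Without normalization 8 of the 10 were lost (adjusted p 0.0794 to 1). The counts of members called were then 1 between uncultured regions, 0 on culture of aPPs, 1 on culture of pPPs and 0 between cultured regions, against 3, 1, 3 and 3. Those of further crest genes were 0, 0 and 0 in the first 3 comparisons, against 3, 6 and 5. In that setting the median of all probe sets shifted by -0.19 and -0.20 on culture of aPPs and pPPs, and 34 and 18 probe sets were called in all, against 801 and 849. With the set number as a block, 2 members rose on culture of aPPs, as with array weights (2), against 1, SNAI2 being the addition, and the block changed no other call of a member. With an offset of 64, 1 member was called in the difference of the culture responses, against 0. The cause of these changes was not tested. Leaving out each array gave 2 to 3 member calls between uncultured regions, 1 to 2 on culture of aPPs, 1 to 4 on culture of pPPs, 2 to 3 between cultured regions and 0 to 0 for the difference of responses. For further crest genes the ranges were 2 to 5, 2 to 7, 1 to 7 and 0 to 0. The lowest member count on culture of pPPs came without cultured pPP set 1, which leaves 1 array in that group. The small number of arrays, 2 in each cultured group, limits the precision, and PAX7, SOX9, FOXD3 and SOX10 lie close to the detection limit.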
